A study of Homo sapiens with 6 samples.

Results

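The keratin genes were the 55 protein-coding genes of the GENCODE release 44 annotation, on the hg19 (GRCh37) genome, that are named KRT followed by a number, with or without a final letter, out of 20136 protein-coding genes. Keratin-associated protein genes (KRTAP) were not members. Chromatin accessibility had been measured by ATAC-seq, in which a transposase cuts accessible DNA and inserts sequencing adapters there, in 3 libraries of parental MDA-MB-231 cells and 3 libraries of SAP30-KO1 cells. MDA-MB-231 is a long-established line of human triple-negative breast cancer with a mesenchymal appearance. SAP30-KO1 cells were derived from it by CRISPR/Cas9 knockout of SAP30, which encodes a subunit of the SIN3 histone deacetylase complex. According to the methods, knockout cells were selected singly, expanded and pooled, so the line is a mixture, made with 1 guide RNA. No treatment is given for either group, and nothing in the labels says whether the 3 libraries of a group came from separate cultures, so the tests measure the spread between these libraries, which may be technical.

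Keratins are the intermediate filament proteins of epithelial cells. A filament is built from pairs of a type I keratin, encoded in the chromosome 17 cluster, and a type II keratin, encoded in the chromosome 12 cluster, with KRT18 as the type I gene that lies among the type II genes. The simple keratins KRT7, KRT8, KRT18 and KRT19 are made by luminal cells of the mammary gland, KRT5, KRT14, KRT15 and KRT17 mark basal cells, KRT6A, KRT6B, KRT6C and KRT16 are induced in stressed or wounded epidermis, and the hair keratins form the hard filaments of hair and nail.

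The genes fell into 4 luminal (KRT7, KRT8, KRT18, KRT19), 8 basal (KRT5, KRT6A, KRT6B, KRT6C, KRT14, KRT15, KRT16, KRT17), 17 hair, 9 inner root sheath and companion layer, and 17 other keratins. The basal class is thus a name for a list that also holds the stress-induced KRT6A, KRT6B, KRT6C and KRT16. The chromosome 12 cluster ran from KRT80 to KRT18 (chr12:52562780-53346690) and held 27 of them, and the chromosome 17 cluster ran from KRT222 to KRT17 (chr17:38810917-39781094) and held 28. A promoter peak is a summit within 1 kb of the start of any annotated transcript of the gene. Its height is given as a percentile rank, the position of the peak's score among all scores of its own library from 0 to 100, and a promoter without a peak has rank 0. A peak shows accessible chromatin and says nothing of how much RNA or protein the gene makes.

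The regions below show both sides of the data: 4 peaks of the clusters, chosen after their values were seen, and 4 hair keratin promoters in which no library had a peak. The far peak upstream of KRT19 is shown because its groups did not overlap. The other 3 peaks, whose groups overlapped, were picked from 7 cluster loci with an AP-1 motif. Each had a peak in more parental than SAP30-KO1 libraries. The AP-1 loci not printed went either way. The KRTAP4-6 promoter had peaks in 2 SAP30-KO1 and 0 parental libraries, and the locus at chr12:53265476 in 1 and 0. The locus at chr12:52721635 had 1 of each, and a locus in KRT32 had 1 parental and 0 SAP30-KO1. The peaks are given as GRCh37 sequence from 100 bases before to 100 bases after a summit, and capitals mark the AP-1 motif TGACTCA or its reverse complement TGAGTCA. The far peak upstream of KRT19 holds none of the 3 motifs searched (TGACTCA, the GC box GGGCGG and the TATA box TATAAA, each on both strands) and has no capitals.
Upstream of KRT80, chr12:52591905-52592105, + strand: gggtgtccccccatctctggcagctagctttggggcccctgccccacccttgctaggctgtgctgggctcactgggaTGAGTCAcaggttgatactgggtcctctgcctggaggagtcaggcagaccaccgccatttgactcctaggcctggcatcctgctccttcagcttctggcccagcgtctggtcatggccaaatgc
Next to KRT23, chr17:39078605-39078805, + strand: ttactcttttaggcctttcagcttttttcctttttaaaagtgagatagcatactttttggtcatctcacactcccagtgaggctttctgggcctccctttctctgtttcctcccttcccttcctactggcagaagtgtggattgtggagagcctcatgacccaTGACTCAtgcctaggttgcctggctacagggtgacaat
Upstream of KRT19, near peak, chr17:39686546-39686746, + strand: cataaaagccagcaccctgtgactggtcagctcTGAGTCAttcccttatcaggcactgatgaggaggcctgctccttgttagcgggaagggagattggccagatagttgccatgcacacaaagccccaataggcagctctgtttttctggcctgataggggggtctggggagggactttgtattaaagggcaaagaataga
Upstream of KRT19, far peak, chr17:39704075-39704275, + strand: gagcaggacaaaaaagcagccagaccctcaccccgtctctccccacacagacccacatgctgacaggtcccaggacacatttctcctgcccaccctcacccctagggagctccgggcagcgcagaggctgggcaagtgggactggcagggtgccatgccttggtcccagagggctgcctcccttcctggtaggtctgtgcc
The hair keratin promoters are the 150 bases before the start that RefSeq gives each gene, read on the gene's strand and placed in GRCh37 by exact match, and capitals mark the TATA box.
KRT33A, chr17:39507081-39507230, - strand: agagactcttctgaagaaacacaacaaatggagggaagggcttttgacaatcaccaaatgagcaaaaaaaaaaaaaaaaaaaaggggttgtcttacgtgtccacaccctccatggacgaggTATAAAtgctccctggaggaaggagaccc
KRT33B, chr17:39526066-39526215, - strand: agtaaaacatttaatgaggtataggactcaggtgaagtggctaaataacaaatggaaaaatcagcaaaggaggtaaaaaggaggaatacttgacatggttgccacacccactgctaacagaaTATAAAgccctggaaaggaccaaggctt
KRT34, chr17:39538559-39538708, - strand: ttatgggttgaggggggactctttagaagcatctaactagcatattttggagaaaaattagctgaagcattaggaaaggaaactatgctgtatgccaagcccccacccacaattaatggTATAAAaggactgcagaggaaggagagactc
KRT31, chr17:39553861-39554010, - strand: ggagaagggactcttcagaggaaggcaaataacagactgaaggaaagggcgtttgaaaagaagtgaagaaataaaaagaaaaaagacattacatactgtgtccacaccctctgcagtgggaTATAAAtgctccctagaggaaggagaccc
In these 4 neighbouring genes the TATA box began 28 to 31 bases before the start. They do not stand for all hair keratins. In the same 150 bases, 15 of 26 promoters of hair, inner root sheath and companion layer keratins held a TATA box, beginning 27 to 146 bases before the start. KRT32 and KRT36 were among the hair keratins without one.

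Few keratin promoters had a peak in either group. A promoter peak was found for 6 of the 55 keratins (10.9%) in at least 1 library, against 12560 of 20136 protein-coding genes (62.4%), and for 0 keratins in all 6 libraries, against 6964 genes (34.6%). The 6 genes were the luminal keratins KRT7, KRT8 and KRT18, the basal keratins KRT15 and KRT16, and KRT80, a type II keratin outside these classes. Parental replicates 1, 2 and 3 had 6, 3 and 2 of them, and SAP30-KO1 replicates 1, 2 and 3 had 3, 4 and 5. By class, 3 of 4 luminal, 2 of 8 basal, 0 of 17 hair, 0 of 9 inner root sheath and companion layer, and 1 of 17 other keratins had a peak.

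The other 49 keratins had no promoter peak in any library. Among the luminal keratins this was KRT19. Among the basal keratins these were KRT5, KRT6A, KRT6B, KRT6C, KRT14 and KRT17. All hair keratins were among them: KRT81, KRT82, KRT83, KRT84, KRT85 and KRT86 of type II, and KRT31, KRT32, KRT33A, KRT33B, KRT34, KRT35, KRT36, KRT37, KRT38, KRT39 and KRT40 of type I. The inner root sheath and companion layer keratins were KRT25, KRT26, KRT27, KRT28, KRT71, KRT72, KRT73, KRT74 and KRT75. The rest were KRT1, KRT2, KRT3, KRT4, KRT76, KRT77, KRT78 and KRT79 on chromosome 12, and KRT9, KRT10, KRT12, KRT13, KRT20, KRT23, KRT24 and KRT222 on chromosome 17, which include the keratins of the upper epidermis (KRT1, KRT2, KRT10), of palms and soles (KRT9), of the cornea (KRT3, KRT12) and of the gut (KRT20). KRT6A, KRT6B and KRT6C are near-identical copies, and how reads that match several of them were handled is not given in the sources used here.

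**Figure D1:**
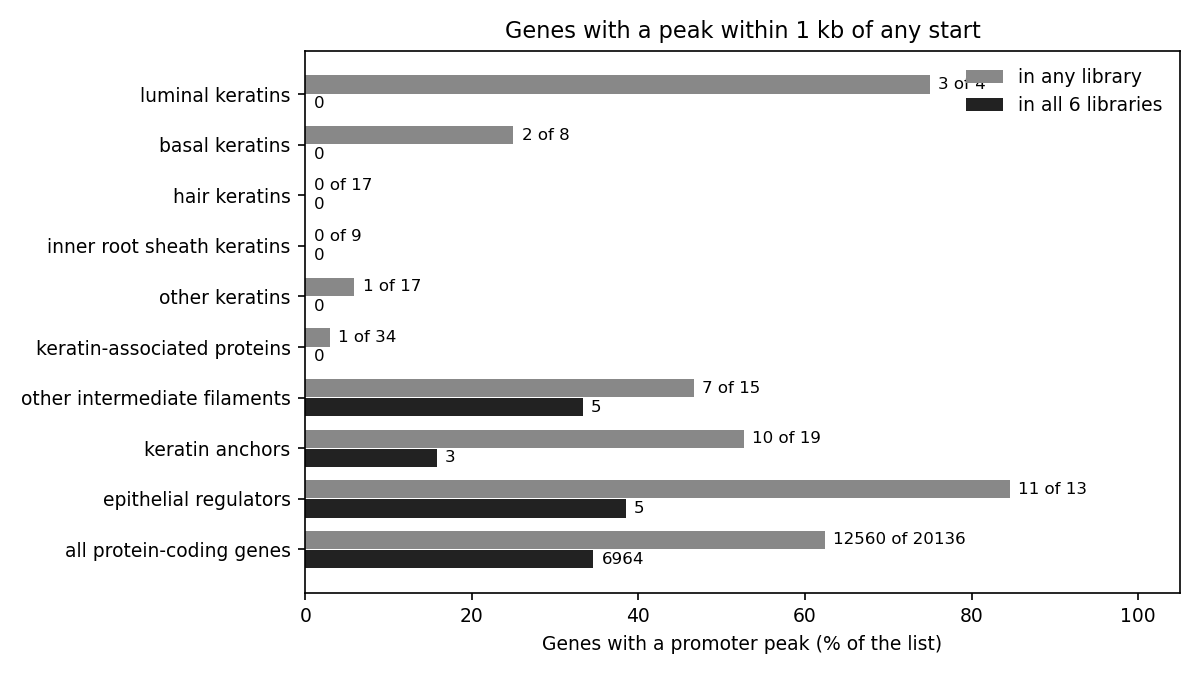
Share of genes (x axis, percent of the list) with a peak within 1 kb of any annotated start, in at least 1 library (grey) and in all 6 libraries (black), with counts beside the bars. No keratin class has a black bar, and the hair and inner root sheath keratins have neither.

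Given as the mean rank over all members of a class, with genes without a peak at 0, the luminal keratins stood at 24.8, 4.97 and 13.8 in parental replicates 1 to 3 and at 8.84, 20.7 and 10.8 in SAP30-KO1 replicates 1 to 3. Their group means were 14.5 ± 9.96 and 13.4 ± 6.34 (SD, n = 3 libraries each), and the groups overlapped. The basal keratins stood at 10.6, 5.12 and 0 in parental and at 3.36, 0 and 2.66 in SAP30-KO1 libraries, which also overlapped. The hair keratins were at 0 in all 6 libraries. The mean over all protein-coding genes was 28.8 ± 2.36 in parental and 29.5 ± 3.47 in SAP30-KO1 libraries. The luminal difference of -1.10 became 4.05 without parental replicate 1 and -5.89 without parental replicate 2, and the basal difference of -3.23 became -0.56 without parental replicate 1. These class means over chosen genes were not tested.

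KRT80 (chr12:52562780-52585798, minus strand), a keratin of differentiated epithelia and of several carcinomas, had the highest keratin rank of all. With any start counted, its rank was 66.9, 35.9 and 41.2 in parental replicates 1 to 3, and 0, 55.2 and 21.7 in SAP30-KO1 replicates 1 to 3. The groups overlapped, with a difference of -22.4 and an exact permutation p of 0.3 (two-sided, 20 assignments, n = 3 against 3, smallest possible p 0.1). Leaving out SAP30-KO1 replicate 1 gave a difference of -9.55, and leaving out SAP30-KO1 replicate 2 gave -37.1. What differed was the presence of a peak at the start of the canonical transcript, a start singled out after the values had been seen. All 3 parental libraries had a summit just before the start of the canonical transcript at base 52585798, lying 99, 231 and 180 bases upstream, with scores of 7.50, 5.08 and 4.88 as −log10 q. No SAP30-KO1 library had a summit within 1 kb of that start. This start also lies within the annotated span of LINC00592, a noncoding RNA gene. The peaks of SAP30-KO1 replicates 2 and 3 lay inside the gene, 5.55 and 5.54 kb downstream of the canonical start, before an annotated retained-intron transcript. Parental replicate 3 had a lower peak there as well, at rank 10.8.

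At the canonical start alone the rank of KRT80 was thus 48.0 ± 16.6 in parental (SD, n = 3) and 0 in each SAP30-KO1 library, a difference of -48.0. At the canonical start, 3 keratins had a peak in any library: KRT80, KRT18 and KRT16. Among these, KRT80 was the only one whose groups did not overlap. Its exact permutation p was 0.1, the smallest that 3 against 3 libraries allow. Over all protein-coding genes with a peak at the canonical start, 4.40% had parental ranks wholly above the SAP30-KO1 ranks, and 0.350% had a peak there in every parental library and none in SAP30-KO1. In limma, a linear model fitted across all promoters, the difference was -48.0 ± 9.21 (SE), with an unadjusted p of 0.00249 and a Benjamini-Hochberg adjusted p of 0.315 over all promoters, so it did not pass 0.05. KRT80 passed the limma filter of a peak in at least 3 libraries there only through the parental libraries. Its SAP30-KO1 ranks were all 0 and had no spread, so the unadjusted p cannot count as support. The canonical start was singled out after the values had been seen. A further peak 6.21 kb upstream, within the transcript LINC00592 and with the AP-1 motif printed above, was present in parental replicates 1 and 3 at ranks 33.4 and 17.2 and in no SAP30-KO1 library.

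KRT7 (chr12:52626304-52645970, plus strand), the type II partner of simple epithelia, had ranks of 41.7, 19.9 and 0 in parental and 10.2, 24.3 and 9.48 in SAP30-KO1 replicates 1 to 3. The groups overlapped (difference -5.90, exact permutation p = 0.7). Most of its peaks lay inside the gene, 10.9 to 11.2 kb downstream of the canonical start at an annotated internal transcript, in 5 of 6 libraries. SAP30-KO1 replicates 2 and 3 also had a peak before the gene, 1098 and 1012 bases upstream of the canonical start, where no parental library had a peak, so that no library had a KRT7 peak within 1 kb of the canonical start itself.

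KRT8 (chr12:53290971-53343738, minus strand) and KRT18 (chr12:53342655-53346690, plus strand), which form the first keratin pair of the embryo and of simple epithelia, lie next to each other with overlapping annotated transcripts. KRT8 had ranks of 28.8, 0 and 55.1 in parental and 25.2, 29.2 and 22.7 in SAP30-KO1 libraries (difference -2.27, exact permutation p = 0.8). KRT18 had ranks of 28.8, 0 and 0 in parental and 0, 29.2 and 10.9 in SAP30-KO1 libraries (difference 3.76, exact permutation p = 0.7). The values of 28.8 and 29.2 are the same summits counted for both genes, since transcripts of KRT8 are annotated to start within KRT18, and the lists cannot tell the genes apart there. No summit lay near the canonical start of KRT8, whose nearest summit was 22.2 kb away. That summit belonged to a peak before the start of a longer KRT8 transcript, found in 5 of 6 libraries at ranks of 57.3, 0 and 55.1 in parental and 41.8, 20.1 and 22.7 in SAP30-KO1 replicates 1 to 3. It was the highest locus of the chromosome 12 cluster by mean rank (32.8). The summit of parental replicate 1 and the summit at rank 41.8 of SAP30-KO1 replicate 1 fell outside the 1 kb window of that start. The KRT8 rank of 25.2 in SAP30-KO1 replicate 1 comes from a lower summit inside the window. The KRT18 summits lay 765, 1000 and 782 bases downstream of its canonical start, at the edge of the window, and SAP30-KO1 replicate 2 was counted at exactly 1 kb.

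KRT15 and the stress-induced KRT16, both of the basal class, had peaks in few libraries. KRT15 (chr17:39669997-39678781, minus strand), a keratin of basal and stem-like epidermal cells, had a rank of 61.0 in parental replicate 1, 21.3 in SAP30-KO1 replicate 3 and 0 in the other 4 libraries, with the peaks 2.79 to 3.23 kb upstream of the canonical start (difference -13.3, exact permutation p = 1). KRT16 (chr17:39766030-39772151, minus strand) had ranks of 23.6, 41.0 and 0 in parental and 26.9, 0 and 0 in SAP30-KO1 libraries, with summits 122 to 435 bases upstream of the canonical start (difference -12.6, exact permutation p = 0.7). Both genes overlapped between the groups, and the KRT16 difference became -2.83 without parental replicate 2.

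**Figure D2:**
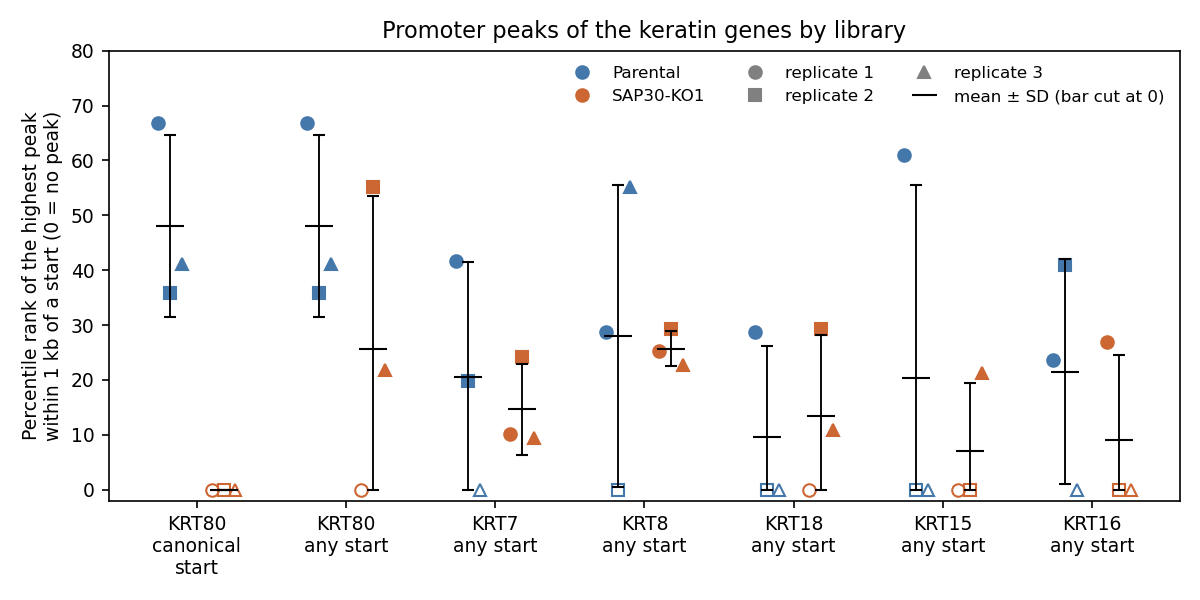
Percentile rank of the highest peak within 1 kb of a start (y axis, 0 where no peak was called) in parental (blue) and SAP30-KO1 (orange) libraries, with symbols for the replicates and bars for the mean and SD. At the canonical start of KRT80 the parental libraries lie at 35.9 to 66.9 and the SAP30-KO1 libraries at 0, and in every other column the groups overlap.

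Counted at any start, 0 keratin promoters had groups that did not overlap, in either direction. Over the 12560 protein-coding genes with a promoter peak, 4.58% lay lower and 6.01% higher in SAP30-KO1 without overlap. The lowest adjusted p of the exact test over these promoters was 0.944. In limma, 5 keratins had peaks in at least 3 libraries and were tested, and 0 of them passed an adjusted p of 0.05 or an unadjusted p of 0.05, with an adjusted p of 0.840 for KRT80 and of at least 0.895 for the other 4. The model called 1 of 10494 promoters (0.00953%).

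Distance to the nearest accessible site differed widely among the keratins. Measured from the canonical start to the nearest summit of any library, the median was 1.47 kb for the luminal, 75.1 kb for the basal, 10.3 kb for the hair, 106 kb for the inner root sheath and companion layer, and 37.4 kb for the other keratins. KRT19, the luminal keratin without a promoter peak, had its nearest summit 1.92 kb from the start. KRT14 and KRT17, both basal, had theirs at 26.0 and 11.4 kb, whereas KRT5, the type II partner of KRT14, was 193 kb from any summit. KRT81, a hair keratin that some breast cancer cells are known to make, had its nearest summit 3.04 kb away, inside its own gene and only in SAP30-KO1 replicates 2 and 3 at ranks 16.1 and 10.6. Among hair keratins KRT34 was closest, at 1.91 kb. These distances are descriptions, as neighbouring genes share summits.

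**Figure D3:**
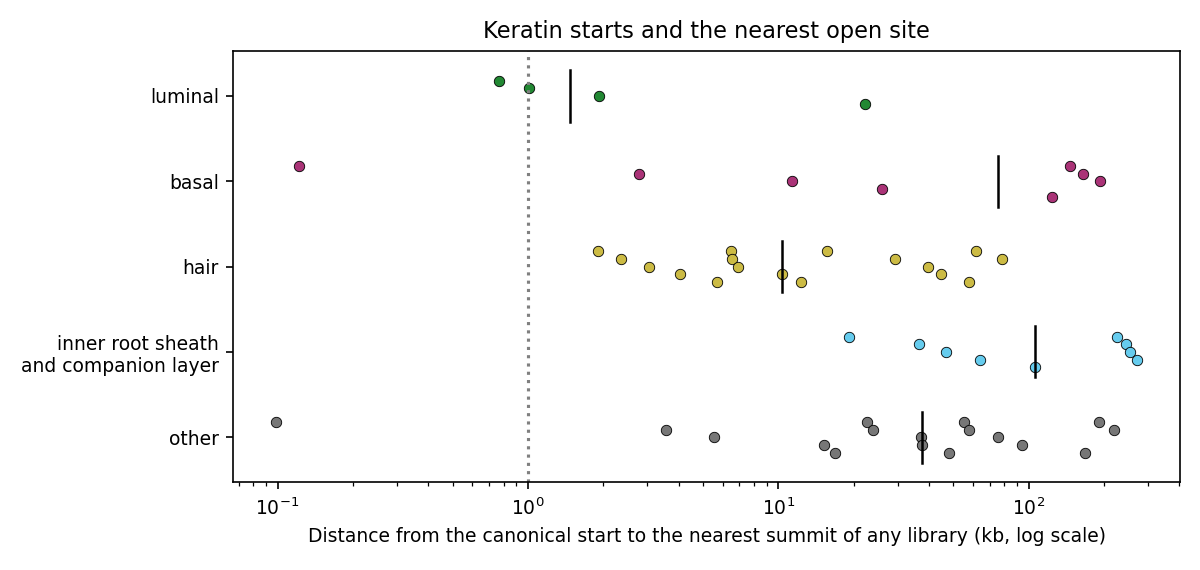
Distance in kb (x axis, log scale) from each keratin's canonical start to the nearest summit of any of the 6 libraries, by class, with 1 point per gene, a vertical bar at the class median and a dotted line at 1 kb. The inner root sheath and companion layer keratins begin at 19.1 kb, and the luminal keratins lie within 1.92 kb except KRT8 at 22.2 kb.

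The chromosome 12 cluster held 8, 4 and 6 summits in parental and 5, 11 and 9 in SAP30-KO1 replicates 1 to 3, with means of 6 ± 2 and 8.33 ± 3.06 (SD, n = 3). The chromosome 17 cluster held 11, 5 and 4 summits in parental and 5, 5 and 3 in SAP30-KO1 libraries, with means of 6.67 ± 3.79 and 4.33 ± 1.15. The counts of the groups overlapped in both clusters and were not tested, and the chromosome 17 difference of -2.33 became -0.17 without parental replicate 1. Per Mb this was 5.10 to 14.0 summits on chromosome 12, where the rest of the long arm had 11.0 to 15.2, and 3.09 to 11.3 on chromosome 17, where the rest of the long arm had 11.3 to 16.3. The cluster density was below that of the rest of the arm in all 6 libraries on both chromosomes. This also held for the sequence of the same length on the left of the chromosome 12 cluster, which had 5.10 to 11.5 summits per Mb and was at or below the cluster in 4 of 6 libraries. The stretch on the right of it had 19.1 to 25.5 per Mb. The stretches beside the chromosome 17 cluster had 7.22 to 15.5 per Mb on the left and 6.18 to 18.6 on the right. Both were above that cluster in all 6 libraries.

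The summits stood at the ends of the chromosome 12 cluster and left its middle empty. Between chr12:52721676 and chr12:53265476, a stretch of 544 kb, no library had a summit, and 20 keratins lie whole inside it: the hair keratins KRT82, KRT84 and KRT85, the inner root sheath and companion layer keratins KRT71, KRT72, KRT73, KRT74 and KRT75, the basal keratins KRT5, KRT6A, KRT6B and KRT6C, and KRT1, KRT2, KRT3, KRT4, KRT76, KRT77, KRT78 and KRT79. On chromosome 17 the longest empty stretch was 239 kb and held KRT33A, KRT33B and 16 keratin-associated protein genes.

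**Figure D4:**
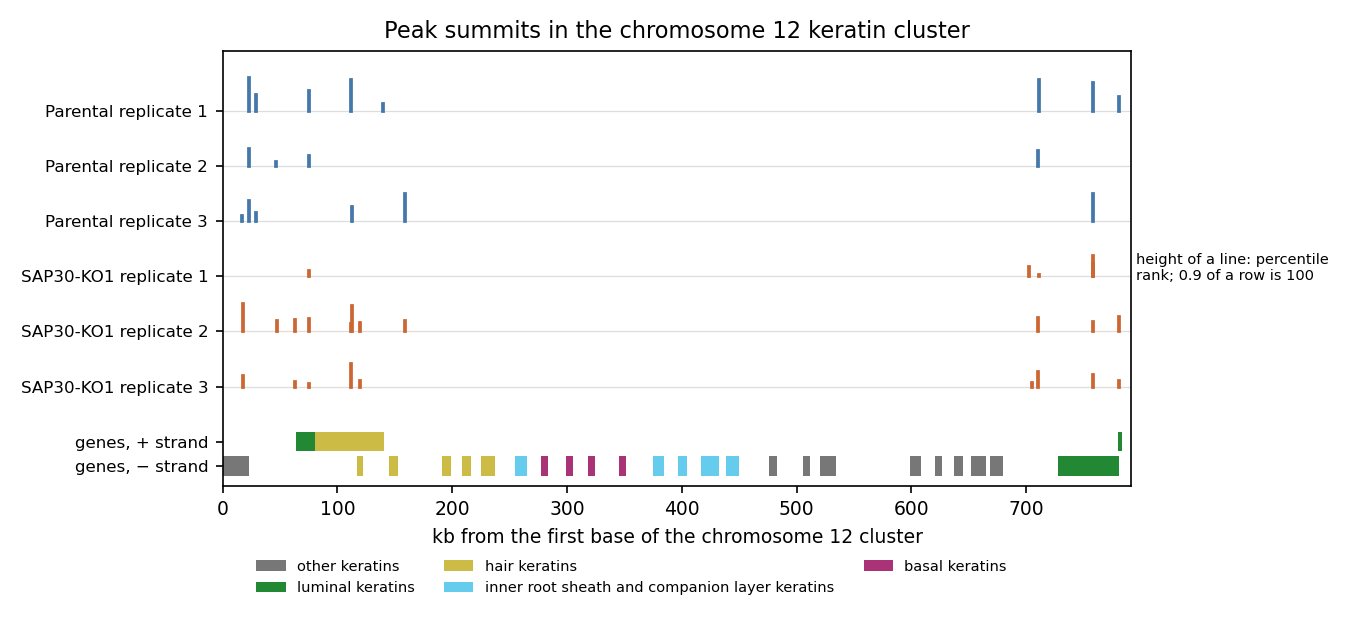
Summits of each library along the chromosome 12 cluster (x axis, kb from its first base), with the height of a line giving the percentile rank, above the keratin genes coloured by class on their strand. The 544 kb stretch without a summit in any library spans the basal and inner root sheath genes, and only parental libraries have a line at the right-hand end of KRT80.

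**Figure D5:**
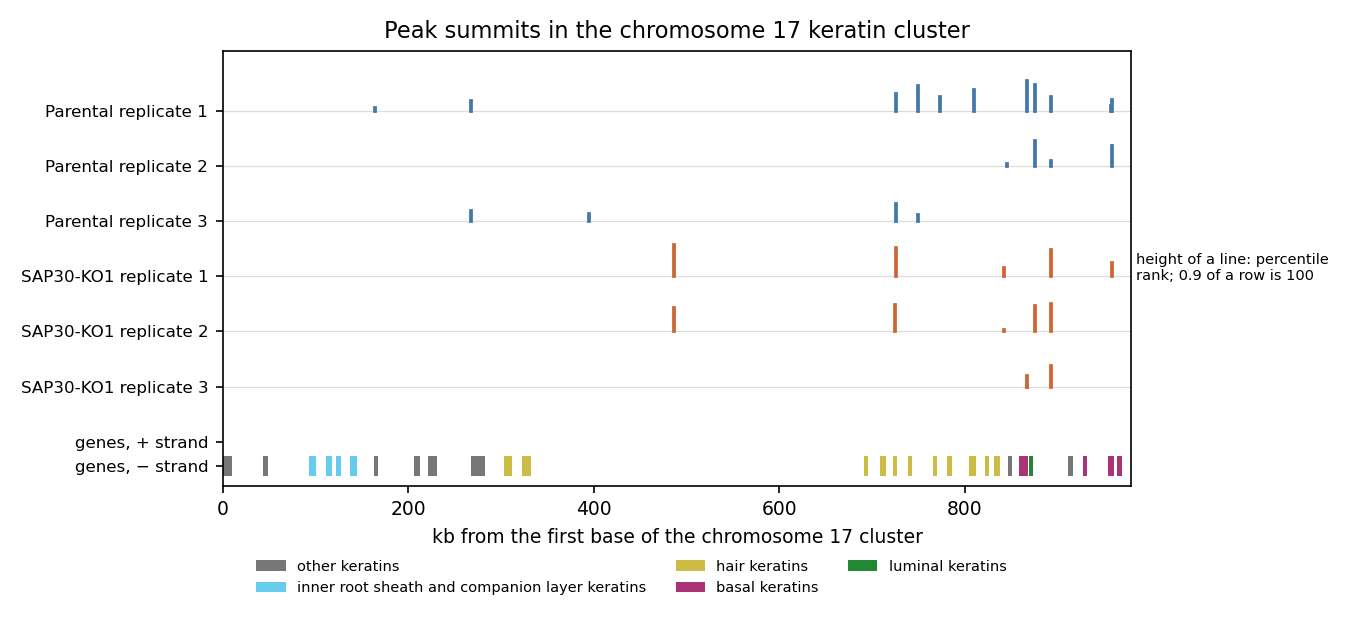
Summits of each library along the chromosome 17 cluster (x axis, kb from its first base), drawn as for chromosome 12. The far peak upstream of KRT19, near 893 kb, is taller in all SAP30-KO1 libraries than in any parental library.

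The summits of the clusters merged into 29 loci, 15 on chromosome 12 and 14 on chromosome 17, out of 56419 loci in the genome. Of these, 0 had a peak in all 6 libraries and 8 had a peak in 1 library, against 28.9% and 28.5% of all loci. At 1 cluster locus, the KRT80 start (chr12:52585647-52586279), all parental ranks lay above the SAP30-KO1 ranks, and at 1 all lay below, where 4.26% and 5.86% of all loci did so. The latter was the far peak upstream of KRT19 (chr17:39703925-39704729), intergenic and 19.6 kb upstream of the canonical start of KRT19. Its rank was 29.8, 10.6 and 0 in parental and 54.3, 54.8 and 42.0 in SAP30-KO1 replicates 1 to 3, a difference of 36.9 with an exact permutation p of 0.1. Both had an adjusted p of 0.988 over all loci. In contrast, the near peak 2.09 kb upstream of KRT19, which holds an AP-1 motif, had ranks of 53.5, 51.0 and 0 in parental and 0, 50.6 and 0 in SAP30-KO1 libraries, which overlapped.

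Of the other highest loci, an intron of KRT86 held a peak at 62.6, 0 and 29.8 in parental and 0, 50.8 and 44.4 in SAP30-KO1 libraries, and an intergenic peak between KRT78 and KRT8 had 63.2, 31.9 and 0 in parental and 3.19, 27.8 and 29.2 in SAP30-KO1 libraries. An intron of KRT34 had 35.8, 0 and 35.5 in parental and 58.3, 54.3 and 0 in SAP30-KO1 libraries. The groups overlapped at all of these. The promoter of KRTAP4-6, the only promoter among 34 keratin-associated protein genes of the cluster with a peak, had ranks of 62.8 and 46.6 in SAP30-KO1 replicates 1 and 2 and 0 elsewhere. This KRTAP4-6 peak also holds an AP-1 motif. The AP-1 locus next to KRT23 had ranks of 20.9 and 20.7 in parental replicates 1 and 3 and 0 in the other libraries.

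Within 100 bases of the summit, 7 of the 29 cluster loci (24.1%) held the AP-1 motif, against 13.5% of all loci, 7 (24.1%) held the GC box, against 17.2%, and 1 (3.45%) held the TATA box, against 9.94%. Among loci with a peak in 3 or more libraries the order was the other way, with the AP-1 motif in 1 of 12 cluster loci (8.33%) against 13.7% of all such loci. These matches are descriptions of the sequence. RefSeq promoters of 300 bases (250 before and 50 after the start, GRCh38) were found for 22 of the 26 hair, inner root sheath and companion layer keratins. The TATA box occurred in 65.4% of their 26 promoters, against 9.43% of 21579 promoters of protein-coding genes, and the AP-1 motif in 0, against 4.04%. Their median number of CpG sites was 2, against 21. None of these 22 genes had a promoter peak, and of 3619 other protein-coding genes with 10 or fewer CpG sites in the promoter 22.5% had one. Too few luminal and basal keratins were matched for the same comparison.

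Related genes were described by counts, to be read beside the 62.4% of all protein-coding genes with a promoter peak in some library and the 34.6% with one in all 6. Among 15 other intermediate filament genes, 7 (46.7%) had a promoter peak in some library and 5 (33.3%) in all 6, among them VIM, the filament of mesenchymal cells, at ranks of 38.2, 84.0 and 80.4 in parental and 13.5, 57.6 and 50.8 in SAP30-KO1 libraries. Of 19 genes of keratin anchors, the desmosomes and hemidesmosomes to which keratins attach, 10 (52.6%) had a peak in some library and 3 (15.8%) in all 6. EVPL, which encodes envoplakin, had ranks of 48.7 and 61.1 in parental replicates 1 and 2 and 0 elsewhere. Differences in these lists ran in both directions. ITGA6, also an anchor gene, had ranks of 17.4, 0 and 0 in parental and 35.3, 10.7 and 41.3 in SAP30-KO1 libraries, which overlapped. Of 13 epithelial regulators, 11 (84.6%) had a peak in some library and 5 (38.5%) in all 6 (GRHL1, KLF4, KLF5, TFAP2A and ESRP2). In these lists 0 genes had groups that did not overlap, where 4.58% of all promoters with a peak lay lower and 6.01% higher. As a check of the cell type, the epithelial adhesion gene CDH1, the basal keratins KRT5 and KRT14 and the mesenchymal adhesion gene CDH2 had no promoter peak in any library. ESR1 had one in 1, FOXA1 and TP63 in 2, ZEB1 in 3, GATA3 and EPCAM in 5 and VIM in 6 libraries.

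The lists held 29762 to 40650 summits, and their median score ran from 5.58 to 6.56 as −log10 q. The sequencing depth is unknown, since the lists hold no read counts, and a missing peak means only that none passed the authors' threshold. The promoter of SAP30 itself had ranks of 84.7, 64.8 and 81.3 in parental and 71.8, 49.5 and 89.5 in SAP30-KO1 libraries, which does not check the knockout, as an edited coding sequence can leave a promoter accessible. On the long arms of chromosomes 12 and 17, loci that were peaks in every library had a median rank difference between SAP30-KO1 and parental of 0.89 and -0.32.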

How the data were processed

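Groups and replicate numbers came from the sample labels. Per the study's methods and the submitters' processing notes, the authors used Trim Galore 0.4.5 on single-end reads, Bowtie2 2.3.3.1 for alignment to hg19, Picard for duplicate removal and MACS2 2.1.0 for peak calling at a q value of 0.05. Read shifting and blacklist removal are not given in the sources used here. Without a shift, summits would be off by some bases, which bears on those at the edge of a 1 kb window. The deposited lists, 1 per library, give summits and, as a score, −log10 q values. This unit was read from the values, whose minimum per library was 1.31 to 1.33, where −log10 of 0.05 is 1.30.

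Scores were ranked within each list, since each list had been called on its own. Coordinates are GRCh37, counted from 1, and genes and starts are those of GENCODE 44 lifted to GRCh37. A promoter took its highest summit within 1 kb of any start, and the canonical start is that of the Ensembl canonical transcript. Summits were extended by 250 bp on each side and merged over the 6 libraries into loci. Group means were compared by the two-sided exact permutation test over 20 assignments with Benjamini-Hochberg adjustment over all promoters or loci. limma 3.58.1 (R 4.3.3) was fitted to ranks of promoters with a peak in at least 3 libraries. Other steps used Python 3.11.15, numpy 2.4.6 and scipy 1.17.1, and the tests were tested on simulated data. No count over the members was tested. Named genes were every keratin with a peak in at least 3 libraries, the luminal and basal keratins and KRT81. Named loci were the 5 highest by mean rank in each cluster and those with a peak in all libraries of 1 group and none of the other. KRT34, KRT23, EVPL, KRTAP4-6 and a few further genes and loci were named after their values were seen. The members and gene lists were chosen with earlier results of these data known. Alternatives covered stricter q values, equal list lengths, other promoter windows and starts, ranks within the arm, log2 scores, the replicate number as a block and leaving out each library.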

Additional observations from a re-analysis of the deposited data

How the results depend on the processing

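Of 257 recomputed values, 19 had the opposite sign to the reported value. At the canonical start of KRT80 the difference kept its sign under all alternatives. In ranks it ran from -31.98 at a q value of 0.0001 to -54.05 without parental replicate 2, and on the log2 scale it was -2.84. Every SAP30-KO1 rank there was 0, so stricter q values, a shorter window or a library left out could not turn the sign. KRT7 turned to 10.6 with the 5 prime end of the gene alone, to 0.50 on the log2 scale and to 4.69 without parental replicate 1 (range with a library left out -16.2 to 4.69). KRT8 turned to 3.76 with a window of 500 bp or the 5 prime end alone, to 0.64 on the log2 scale and to 11.3 without parental replicate 3 (range -16.3 to 11.3). KRT18 turned to -2.98 with the same number of top-scored summits in each library and, with a library left out, ranged from -4.16 to 13.4, below 0 without parental replicate 2 or 3 (-1.04) or SAP30-KO1 replicate 2. KRT15 turned to 7.09 without parental replicate 1, which alone set its sign (range -23.4 to 7.09). With a library left out, KRT80 at any start ranged from -37.1 to -9.55 and KRT16 from -23.3 to -2.83. The luminal class difference of -1.10 turned to 0.40 with a 500 bp window, 3.60 with the 5 prime end and 0.94 with the canonical start, and ranged from -5.89 to 4.05 with a library left out, above 0 without parental replicate 1 or SAP30-KO1 replicate 1 or 3. The basal one ranged from -5.84 to -0.56. Keratin promoters without overlap numbered 0 and became 1, lower in SAP30-KO1, with a 500 bp window, the 5 prime end alone, the canonical start alone (an alternative added after the data were seen) and without SAP30-KO1 replicate 2 (0 to 1 over the libraries left out). Keratins with a promoter peak became 10 with a 2.5 kb window and 3 with the canonical start alone, and the hair difference became -0.0263 with 2.5 kb. The chromosome 12 cluster difference of 2.33 summits became -1 with equal list lengths, and the chromosome 17 difference of -2.33 became 0 at a q value of 0.0001 and -0.17 without parental replicate 1. Cluster loci without overlap ranged from 1 to 5 lower (5 without parental replicate 2, 3 without parental replicate 3) and 1 to 4 higher (4 without SAP30-KO1 replicate 1 or 3) with a library left out. limma's 1 called promoter became 0 with a peak in all 6 libraries, with the canonical start and with any library left out (0 to 0), and keratins called stayed at 0. Same-numbered libraries did not deviate together (correlations -0.02, -0.03 and 0.01 over 6964 promoters). These values cannot tell whether such libraries were prepared together, and the labels do not say. With the replicate block limma called 0 promoters, and the exact sign-flip p at KRT80's canonical start was 0.25, its smallest value. Unknown depth limits all absences of peaks.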
